A study of Homo sapiens with 6 samples.

Results

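The nuclear genes described here encode the subunits of the mitochondrial respiratory chain and of ATP synthase. They were the protein-coding genes with a symbol made of NDUFA, NDUFB, NDUFC, NDUFS or NDUFV and a number, the genes SDHA to SDHD, and the genes with a symbol that starts with UQCR, COX4 to COX8 or ATP5. This rule used names only and gave 88 of the 58735 genes measured. Of these, 37 were counted with complex I, 4 with complex II, 9 with complex III, 17 with complex IV and 21 with complex V. The grouping also followed the symbols, so NDUFA4, a subunit now placed in complex IV, was counted with complex I. The list also took in ATP5IF1, the inhibitor of ATP synthase, and COX7A2L, a factor that joins complexes III and IV.

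The chain passes electrons from NADH (complex I) or succinate (complex II) through ubiquinone to complex III, then through cytochrome c to complex IV, which reduces oxygen. Complexes I, III and IV pump protons across the inner membrane, and complex V, the ATP synthase, uses the gradient to make ATP. Complex II is built from nuclear genes alone, while the other complexes also hold subunits encoded in mitochondrial DNA, so that transcripts from both genomes are needed to build them.

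The data came from MDA-MB-231, an established basal-like human breast adenocarcinoma line. RNA was sequenced from 3 libraries of cells at 0 Gy and 3 libraries of cells at 10 Gy from a sealed caesium source, taken 24 h after irradiation. All 6 libraries were labelled as wild type, and their columns also carried the name SCR, which the study's methods use for a control shRNA that all groups would then share. The comparison asks how the radiation dose moved the transcripts. The labels do not say whether the libraries came from separate cultures, so p-values measure only the spread between these libraries.

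Values were deposited as FPKM, a read density that is corrected for gene length and library depth. The low values were whole multiples of the value of a single read, which gave 15643641 to 28861781 reads per library, and 56 to 33734 reads per library for the respiratory genes that were tested. Counts of reads cover counting error only. Correlations of log values were 0.992 to 0.994 between libraries of the same dose and 0.984 to 0.989 between doses. Of 6 mesenchymal markers of basal-like lines, all exceeded 8 FPKM in every library and their sum was 729 to 745 FPKM at 0 Gy and 643 to 656 FPKM at 10 Gy. By contrast PGR, CD3E and HBB were listed at 0 throughout and ESR1 reached at most 0.0169 FPKM. Other markers of the same lists were present. Of the 6 luminal genes 3 reached a mean of 1 FPKM, ERBB2, GATA3 and EPCAM, with a median level of 2.99 FPKM. Of the 4 blood cell genes 1 did, CD14, at 2.22 FPKM. At 10 Gy the mitotic cyclin CCNB1 rose (log2 change 0.42 ± 0.035 (SE), adjusted p = 0.000593) and CDKN1A, an inhibitor of cell cycle kinases, fell (log2 change -0.30 ± 0.063 (SE), adjusted p = 0.0102). With each library divided by its FPKM sum (TPM), CDKN1A was not called (adjusted p = 0.052). Of 7 genes tested for the dose labels 3 rose and 1 fell in the deposited values, where MDM2 and GDF15 were not called (adjusted p = 0.105 and 0.124). Among markers of other cells, the sums were 11.4 to 12.5 FPKM at 0 Gy and 12.02 to 12.5 FPKM at 10 Gy for 6 luminal, 4.19 to 4.30 FPKM at 0 Gy and 5.53 to 5.80 FPKM at 10 Gy for 5 fibroblast, 1.32 to 2.56 FPKM at 0 Gy and 2.01 to 3.05 FPKM at 10 Gy for 4 blood cell and 1.29 to 1.34 FPKM at 0 Gy and 1.99 to 2.09 FPKM at 10 Gy for 3 endothelial genes. COL1A1 and PECAM1 rose, while DCN and PTPRC stayed under 0.01 FPKM; the part of these in the results was not tested.

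At 0 Gy the 88 genes ranged from not detected to 528 FPKM. A mean of at least 1 FPKM over the 6 libraries was reached by 78 of them, which were tested, with a median level of 28.8 FPKM against 7.05 FPKM over all 12128 genes tested. Together the 88 genes made up 1.53%, 1.41% and 1.41% of all FPKM in the 0 Gy libraries and 1.40%, 1.40% and 1.41% in the 10 Gy libraries. The first control library was thus the high one and the other two lay close to the irradiated libraries. In 68 of the 78 tested genes that library had the highest of the 3 control values. Without it the median log2 change of the list was -0.12 and 30 genes were called (21.4% of all genes lower). With it the values were -0.16 and 36 (23.7% of all genes lower). The coefficient of variation had a median of 6.72% at 0 Gy and 3.49% at 10 Gy.

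**Figure D1:**
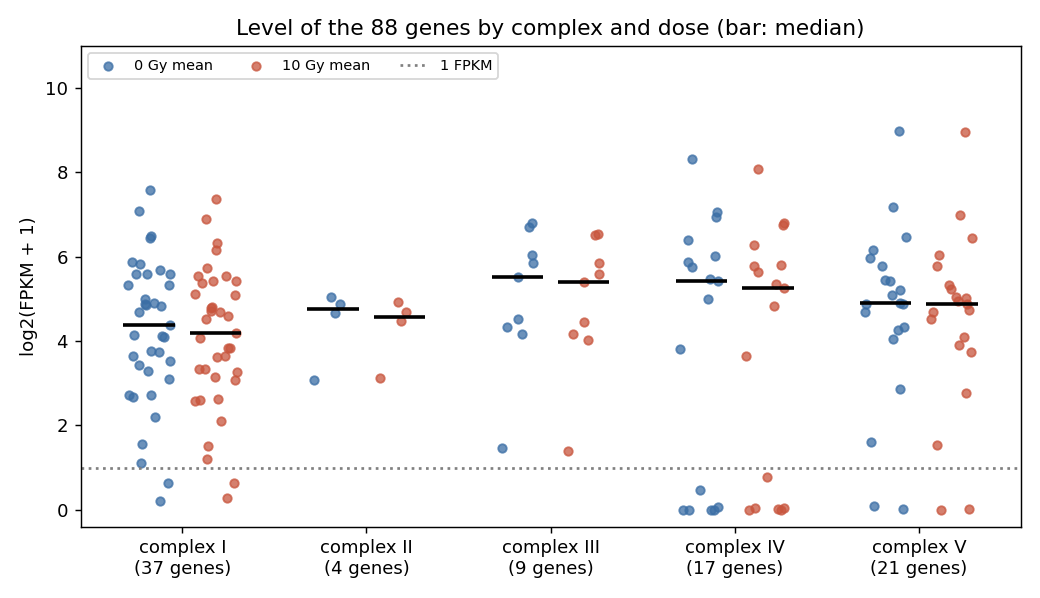
Mean level of each of the 88 genes by complex (x axis) as log2(FPKM + 1) (y axis), at 0 Gy (blue) and 10 Gy (red), with bars at the medians and a dotted line at 1 FPKM. Most genes lie well above 1 FPKM at both doses, and 6 genes of complex IV, 2 of complex I and 2 of complex V lie below it.

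In the deposited values, respiratory subunit transcripts were lower at 10 Gy by a small amount, with the middle of the log2 changes between -0.21 and -0.11 (quartiles). Of the 78 genes tested, 36 fell and 0 rose (limma on log2(FPKM + 1), adjusted over all genes), against 23.7% of all genes called lower and 11.9% called higher. At an unadjusted p under 0.05 0 genes of the list were higher. The median log2 change was -0.16 for the list, equal to a fall of 10.7%, and -0.039 for all genes. In 72 of the 78 the change lay below the median of all genes. Only 3 of the 36 fell by 1.3-fold or more, ATP5ME, ATP5MC1 and ATP5MC2, all in complex V, where 2.95% of all genes did so. The 3 irradiated libraries lay below the 3 controls in 50 of the 78 genes, and 32.8% of all genes had that order. Whether cells held less of these transcripts or the culture held fewer cells rich in them cannot be told apart in bulk RNA.

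How many genes were called depended on how the libraries were scaled. The FPKM of all genes summed to 269611 to 278380 in the control libraries and 246920 to 254918 in the irradiated ones. Dividing each library by its sum (TPM) moved the median change of all genes from -0.039 to 0.068, and the list then had 7 genes called lower and 2 higher, where 8.83% of all genes were lower and 25.8% higher. With median-of-ratios scaling 23 fell and 0 rose (16.9% of all genes lower), with the recovered reads as depth 15 fell and 1 rose (13.6% lower), and with the upper quartile 12 fell and 1 rose (11.9% lower). A scaling divides each library by 1 number and moves nearly all genes alike, so the distance to the median of all genes could hardly change. The median of the list lay 0.12 log2 units lower in the deposited values and 0.11 to 0.12 lower under the other scalings. For the same reason 71 or 72 of its genes lay below that median each time. Settings that can move the difference gave -0.087 without the first control library, -0.089 with a minimum of 5 FPKM and -0.17 with no filter on low genes. The share of the list called lower under TPM was close to that of all genes. Single libraries also mattered. Without the first irradiated library 17 of the 78 genes were called lower, where 15.1% of all genes were. Without the second it was 13 of the 78, where 14.9% of all genes were called lower.

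**Figure D2:**
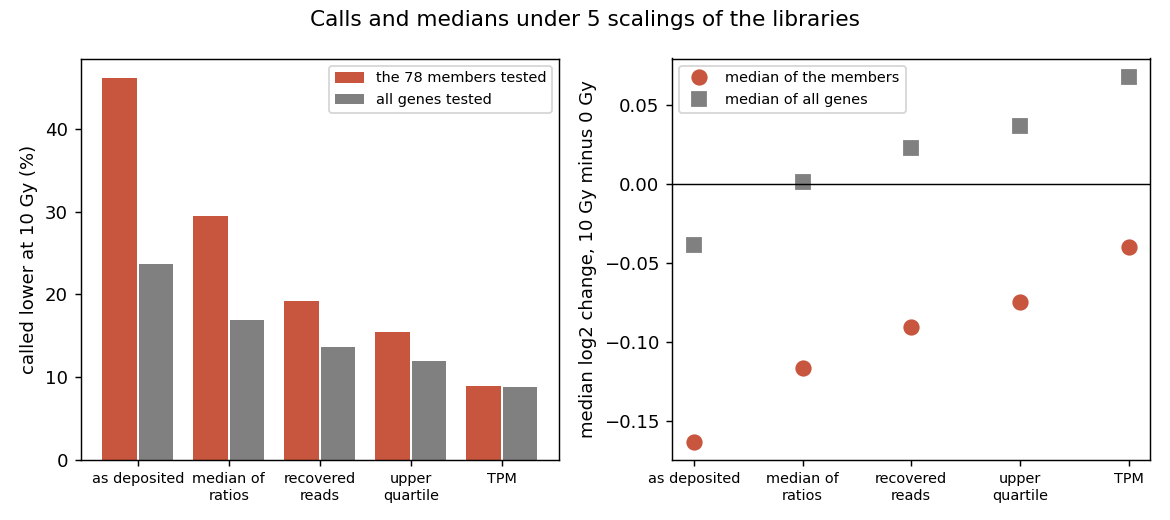
Left, percent of genes called lower at 10 Gy (y axis, from 0) under 5 scalings (x axis) for the 78 respiratory genes (red) and all 12128 genes tested (grey). Right, median log2 change, 10 Gy minus 0 Gy, of the same groups. The share of the list called lower falls from 46.2% as deposited to 8.97% with TPM. The distance between the medians hardly depends on scaling, which moves nearly all genes alike.

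Called lower in all 17 analyses (the deposited values and 16 alternatives, each library left out in turn among them) were 7 genes: NDUFA1, NDUFB2 and NDUFS6 of complex I, COX6B1 of complex IV, and ATP5MC1, ATP5MC2 and ATP5ME of complex V. These are the same 7 genes of the list that were called lower under TPM, where 8.83% of all genes were. The log2 change was below 0 in all analyses for 55 of the 78 tested genes. The shares of all genes that met either condition over all analyses were not computed, so neither count has a background. NDUFA12, NDUFB1, SDHD and ATP5F1E fell with each library left out but not under TPM.

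**Figure D3:**
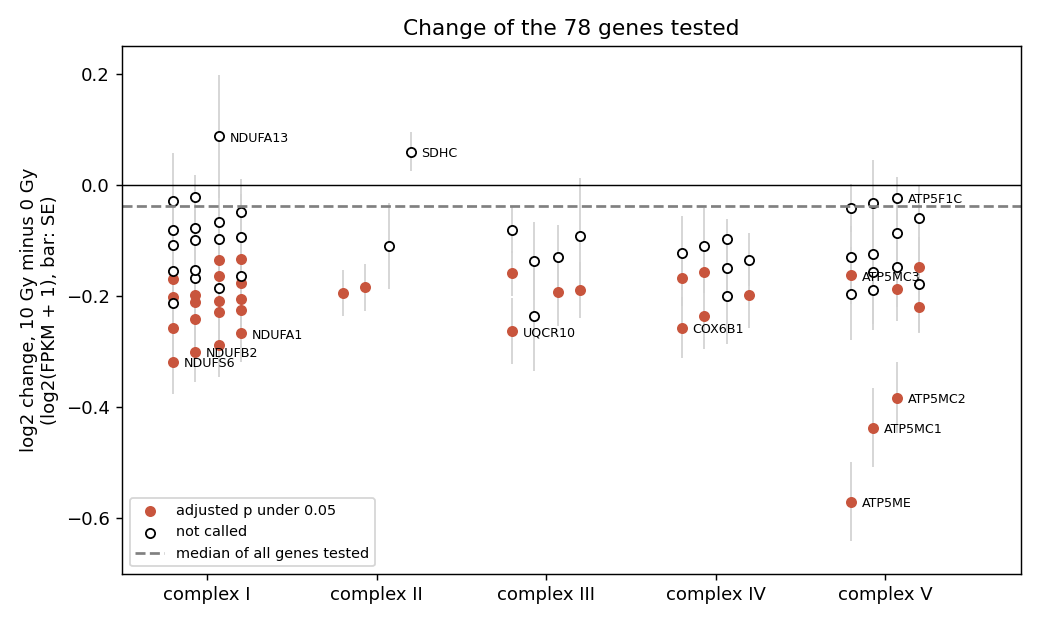
Log2 change of each of the 78 tested genes (y axis, 10 Gy minus 0 Gy on the log2(FPKM + 1) scale, bars are SE) by complex (x axis), in the deposited values. Filled points have an adjusted p under 0.05, and the dashed line is the median of all genes; ATP5ME, ATP5MC1 and ATP5MC2 lie lowest, and NDUFA13 and SDHC are the only points above 0.

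Complex I takes electrons from NADH, and its nuclear core subunits carry the flavin and the iron-sulfur clusters. Of 35 genes tested, 18 fell in the deposited values, with a median log2 change of -0.17, where 23.7% of all genes were called lower. Under TPM 3 of the 35 (8.57%) were called lower, close to the 8.83% of all genes. NDUFS1, which holds several of the clusters, measured 12.4, 12.7 and 12.7 FPKM at 0 Gy and 11.5, 11.3 and 11.3 FPKM at 10 Gy. Its values did not overlap between doses and it fell (log2 change -0.13 ± 0.031 (SE), adjusted p = 0.0152). NDUFV1, the subunit that binds NADH and the flavin, measured 31.9, 27.3 and 27.4 FPKM at 0 Gy and 25.4, 24.0 and 25.2 FPKM at 10 Gy and fell (log2 change -0.20 ± 0.062 (SE), adjusted p = 0.0404). The cluster-bearing NDUFS8 fell from 27.3 to 23.1 FPKM (log2 change -0.23 ± 0.052 (SE), adjusted p = 0.0137). None of these 3 passed under TPM. NDUFS3, a core subunit without a cluster, overlapped between doses (log2 change -0.067 ± 0.058 (SE), adjusted p = 0.4), and so did NDUFS7, which carries the last cluster before ubiquinone (log2 change -0.099 ± 0.063 (SE), adjusted p = 0.258). NDUFV2 lay under the filter at 0.467, 0.600 and 0.579 FPKM at 0 Gy and 0.518, 0.626 and 0.545 FPKM at 10 Gy.

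The remaining genes counted with complex I encode, apart from NDUFA4, accessory subunits, which surround the core and are needed to assemble it. Of 29 tested, 14 fell (23.7% of all genes lower), and 3 of them, NDUFS6, NDUFB2 and NDUFA1, were called in all analyses. NDUFS6, near the end of the matrix arm (chr5:1801400-1816605, plus strand, build GRCh38), measured 62.1, 52.4 and 57.9 FPKM at 0 Gy and 46.1, 45.9 and 45.4 FPKM at 10 Gy. All irradiated libraries lay below all controls, the mean fell by 20.4% (log2 change -0.32 ± 0.058 (SE), adjusted p = 0.00635), and the log2 change was -0.38 to -0.19 over all analyses. NDUFB2, in the membrane arm (chr7:140690777-140722790, plus strand), measured 12.4, 11.1 and 10.9 FPKM at 0 Gy and 8.78, 8.99 and 9.56 FPKM at 10 Gy. Its doses did not overlap either and it fell (log2 change -0.30 ± 0.055 (SE), adjusted p = 0.00634; -0.33 to -0.18 over all analyses). NDUFA1, an X-linked membrane subunit (chrX:119871487-119876662, plus strand), measured 89.8, 81.6 and 85.1 FPKM at 0 Gy and 69.3, 68.1 and 75.3 FPKM at 10 Gy, with the same order of doses. Its mean fell by 17.1% (log2 change -0.27 ± 0.051 (SE), adjusted p = 0.00765; -0.31 to -0.14 over all analyses). The highest gene of the complex was NDUFS5 at 202, 176 and 190 FPKM at 0 Gy and 161, 168 and 162 FPKM at 10 Gy, which fell (log2 change -0.21 ± 0.053 (SE), adjusted p = 0.0204) but not under TPM. NDUFA10, an accessory subunit, measured 7.74, 7.55 and 7.58 FPKM at 0 Gy and 7.67, 7.62 and 7.21 FPKM at 10 Gy and did not pass (log2 change -0.021, 95% confidence interval -0.11 to 0.068, adjusted p = 0.692). NDUFA4 measured 28.6 ± 1.61 FPKM at 0 Gy and 25.4 ± 1.75 FPKM at 10 Gy (SD, n = 3) and missed the threshold (log2 change -0.17 ± 0.059 (SE), adjusted p = 0.0604). NDUFA13 was the lowest tested gene, with 1.00, 1.35 and 1.11 FPKM at 0 Gy and 1.64, 1.13 and 1.11 FPKM at 10 Gy. The first irradiated library was the highest, and the log2 change turned to -0.018 without it (log2 change 0.087 ± 0.11 (SE), adjusted p = 0.57 with all libraries).

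Complex II, succinate dehydrogenase, links the chain to the citric acid cycle, and 2 of its 4 genes fell (23.7% of all genes lower). SDHA, the flavoprotein that oxidizes succinate, measured 25.3, 23.4 and 24.5 FPKM at 0 Gy and 21.9, 20.4 and 21.8 FPKM at 10 Gy and fell (log2 change -0.18 ± 0.042 (SE), adjusted p = 0.0144). SDHD, a membrane anchor, measured 28.5, 29.5 and 26.9 FPKM at 0 Gy and 23.9, 24.7 and 25.1 FPKM at 10 Gy and fell (log2 change -0.19 ± 0.042 (SE), adjusted p = 0.0114). SDHB, the iron-sulfur subunit, measured 35.4, 28.6 and 31.5 FPKM at 0 Gy and 28.7, 28.1 and 31.3 FPKM at 10 Gy, with overlapping doses (log2 change -0.11 ± 0.077 (SE), adjusted p = 0.301). SDHC, the partner anchor of SDHD, was the only tested gene of the list with all irradiated libraries above all controls. Of all 12128 genes tested 2311 had that order. It measured 7.47, 7.55 and 7.28 FPKM at 0 Gy and 7.66, 7.89 and 7.82 FPKM at 10 Gy. It did not pass in the deposited values (log2 change 0.059, 95% confidence interval -0.023 to 0.14, adjusted p = 0.222). It was called higher with the recovered reads (log2 change 0.13, adjusted p = 0.0306), the upper quartile (0.14, adjusted p = 0.0205) and TPM (0.17, adjusted p = 0.0124). Under TPM neither SDHA (log2 change -0.062, adjusted p = 0.233) nor SDHD (log2 change -0.070, adjusted p = 0.197) passed.

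Complex III passes electrons from ubiquinol to cytochrome c. Of 9 genes tested 4 fell, UQCR10, UQCRB, UQCRC1 and UQCRH, where 23.7% of all genes were called lower. All 9 log2 changes were below 0, between -0.26 and -0.082. The lowest was that of the small subunit UQCR10, with 60.1, 52.9 and 56.8 FPKM at 0 Gy and 46.0, 44.6 and 50.3 FPKM at 10 Gy (log2 change -0.26 ± 0.060 (SE), adjusted p = 0.0146). UQCRQ, the highest in level, measured 129, 95.5 and 106 FPKM at 0 Gy and 91.4, 90.7 and 96.0 FPKM at 10 Gy. It had the largest spread of the tested genes at 0 Gy (coefficient of variation 15.7%), with a first control library far above the rest, and was not called (log2 change -0.24 ± 0.0996 (SE), adjusted p = 0.105). Under TPM, 0 of the 9 passed (8.83% of all genes lower), with a median log2 change of -0.038. UQCRHL, a retained copy of UQCRH with coding sequence 98.5% identical to it, was listed at 1.89, 1.94 and 1.504 FPKM at 0 Gy and 1.47, 1.96 and 1.40 FPKM at 10 Gy, against 112, 98.6 and 101 FPKM at 0 Gy and 87.6, 87.9 and 97.2 FPKM at 10 Gy for UQCRH. Reads could be split between the copies, so its level is uncertain.

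Complex IV, cytochrome c oxidase, has several subunits that exist as a common form and as a form restricted to certain tissues such as muscle, lung or testis. Of the 17 genes 11 were tested and 5 fell (23.7% of all genes lower): COX6B1, COX7A2L, COX7B, COX7C and COX8A. COX6B1 faces the intermembrane space beside cytochrome c (chr19:35648223-35658861, plus strand) and measured 142, 132 and 124 FPKM at 0 Gy and 111, 107 and 115 FPKM at 10 Gy. Its doses did not overlap and the mean fell by 16.5% (log2 change -0.26 ± 0.054 (SE), adjusted p = 0.0107; -0.30 to -0.13 over all analyses). COX8A was the highest gene of the complex, with 342, 318 and 291 FPKM at 0 Gy and 274, 263 and 268 FPKM at 10 Gy, and fell (log2 change -0.24 ± 0.060 (SE), adjusted p = 0.0214), but not under TPM. COX7A2L was the lowest tested, with 13.5, 12.6 and 12.9 FPKM at 0 Gy and 11.2, 11.7 and 11.8 FPKM at 10 Gy, and fell in the deposited values (log2 change -0.16 ± 0.039 (SE), adjusted p = 0.0197).

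The restricted forms were listed at or near 0 in these cells. COX4I2 and COX6A2 had 0 reads in all 6 libraries, where 3 reads, the limit a count of 0 allows, would be 0.145 to 0.282 FPKM for COX4I2 and 0.185 to 0.361 FPKM for COX6A2. COX7B2 and COX8C had 1 read in 1 irradiated library each, and COX6B2 had 0 to 8 reads per library. All coding bases of COX6B2 (100%) are shared with another annotated gene on the same strand, AC020922.1, which was listed at 0, so its level is uncertain. The common partners were abundant: COX4I1 measured 43.4 ± 4.38 FPKM at 0 Gy and 39.6 ± 0.919 FPKM at 10 Gy (SD, n = 3), COX6A1 57.7 ± 2.23 FPKM at 0 Gy and 53.9 ± 0.381 FPKM at 10 Gy (SD, n = 3) and COX7A2 52.9 ± 4.89 FPKM at 0 Gy and 48.8 ± 2.33 FPKM at 10 Gy (SD, n = 3). None of these 3 passed the test, with adjusted p = 0.188, 0.0658 and 0.243 in that order, while COX7B fell (log2 change -0.17 ± 0.049 (SE), adjusted p = 0.0349). COX7A1, the form of heart and skeletal muscle, was the exception among the restricted genes with 0.373, 0.388 and 0.413 FPKM at 0 Gy and 0.831, 0.762 and 0.551 FPKM at 10 Gy. These were 8, 6 and 9 reads against 25, 14 and 12, so all irradiated libraries were higher, but it lay under the filter of 1 FPKM. With no filter its log2 change was 0.30 ± 0.086 (SE) with adjusted p = 0.1.

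Complex V makes ATP, with a catalytic head, a stalk and a membrane ring of c subunits. Of 19 genes tested 7 fell (23.7% of all genes lower) and all 19 changes were below 0 in the deposited values, from -0.57 to -0.024. The head held the gene with the highest level of the whole list, ATP5F1B, the catalytic beta subunit, at 528, 503 and 493 FPKM at 0 Gy and 486, 489 and 505 FPKM at 10 Gy. These values overlapped and did not pass (log2 change -0.043, 95% confidence interval -0.14 to 0.059, adjusted p = 0.473), and under each other scaling the sign was positive. ATP5F1A, the alpha subunit, measured 34.4, 32.9 and 32.3 FPKM at 0 Gy and 30.04, 29.3 and 30.3 FPKM at 10 Gy and fell (log2 change -0.15 ± 0.034 (SE), adjusted p = 0.0148). ATP5F1C, the gamma subunit that turns in the head, did not pass in the deposited values (log2 change -0.024, 95% confidence interval -0.11 to 0.067, adjusted p = 0.66) and called higher under TPM (log2 change 0.10, adjusted p = 0.0322). ATP5IF1, which blocks the enzyme from running backwards, measured 28.2 ± 1.66 FPKM at 0 Gy and 25.7 ± 1.55 FPKM at 10 Gy (SD, n = 3) and did not pass (log2 change -0.13 ± 0.056 (SE), adjusted p = 0.11). ATP5S, a coupling factor, was the lowest tested gene of the complex at 2.00, 1.99 and 2.13 FPKM at 0 Gy and 1.93, 2.03 and 1.79 FPKM at 10 Gy (log2 change -0.060 ± 0.060 (SE), adjusted p = 0.467).

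The lowest change of all 78 genes was that of ATP5ME, subunit e, which helps ATP synthase pair up in the membrane (chr4:672436-674338, minus strand). It measured 21.2, 18.3 and 17.6 FPKM at 0 Gy and 11.7, 12.7 and 13.0 FPKM at 10 Gy, from 217 to 424 reads per library. Every irradiated library lay well below every control, and the mean fell by 34.5% (log2 change -0.57 ± 0.071 (SE), adjusted p = 0.00169; -0.62 to -0.45 over all analyses). Of its exon bases 61.6% lie opposite MYL5, a gene on the other strand at 2.68 FPKM at 0 Gy and 2.42 FPKM at 10 Gy on average. Whether strand was used in counting is not given in the sources used here, so reads of the pair could be mixed.

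The ring of c subunits is encoded by 3 genes, ATP5MC1, ATP5MC2 and ATP5MC3, whose products differ in the part that is cut off on import and give the same mature protein. In the GENCODE 29 transcripts the last 77 codons of the 3 genes encode the same amino acids. Their bases there were 88.3% identical between ATP5MC1 and ATP5MC2 and 80.1% identical between ATP5MC3 and either of them, with no identical run over 17 bases. The first 60 bases of this stretch are shown to let the 3 genes be told apart, with the 18 positions that differ in capitals (GRCh38, 5′ to 3′ of the coding strand).
ATP5MC1 (chr17:48895216-48895275, plus strand): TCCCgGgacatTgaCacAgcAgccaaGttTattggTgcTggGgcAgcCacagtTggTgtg
ATP5MC2 (chr12:53669207-53669266, minus strand): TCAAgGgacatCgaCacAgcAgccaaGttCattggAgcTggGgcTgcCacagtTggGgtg
ATP5MC3 (chr2:175179116-175179175, minus strand): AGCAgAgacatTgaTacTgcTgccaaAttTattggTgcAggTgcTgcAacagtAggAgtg

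All 3 c subunit genes fell in the deposited values. ATP5MC1 measured 59.7, 52.2 and 49.1 FPKM at 0 Gy and 40.9, 37.5 and 39.4 FPKM at 10 Gy, and its mean fell by 26.8% (log2 change -0.44 ± 0.071 (SE), adjusted p = 0.00416; -0.50 to -0.31 over all analyses). ATP5MC2 measured 46.6, 39.8 and 39.4 FPKM at 0 Gy and 31.8, 32.6 and 31.1 FPKM at 10 Gy, and its mean fell by 24.1% (log2 change -0.38 ± 0.064 (SE), adjusted p = 0.00456; -0.42 to -0.26 over all analyses). For both, all irradiated libraries lay below all controls. ATP5MC3 measured 26.6, 23.5 and 24.3 FPKM at 0 Gy and 21.5, 23.0 and 21.7 FPKM at 10 Gy, also without overlap, and its mean fell by 11.2% (log2 change -0.16 ± 0.051 (SE), adjusted p = 0.0433), which did not pass under TPM (log2 change -0.040, adjusted p = 0.545). A ratio of genes within a library hardly depends on scaling. The log2 ratio of ATP5MC1 to ATP5MC3 was 1.13, 1.12 and 0.98 at 0 Gy and 0.89, 0.68 and 0.83 at 10 Gy. That of ATP5MC2 to ATP5MC3 was 0.78, 0.73 and 0.67 at 0 Gy and 0.54, 0.49 and 0.50 at 10 Gy. Neither ratio overlapped between doses, and both differences (-0.27 and -0.22) had p = 0.1 in an exact two-sided permutation test, the smallest p that 3 against 3 libraries can give (0.15 adjusted over 3 ratios). The ratio of ATP5MC1 to ATP5MC2 differed by -0.054 (exact permutation p = 0.5).

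**Figure D4:**
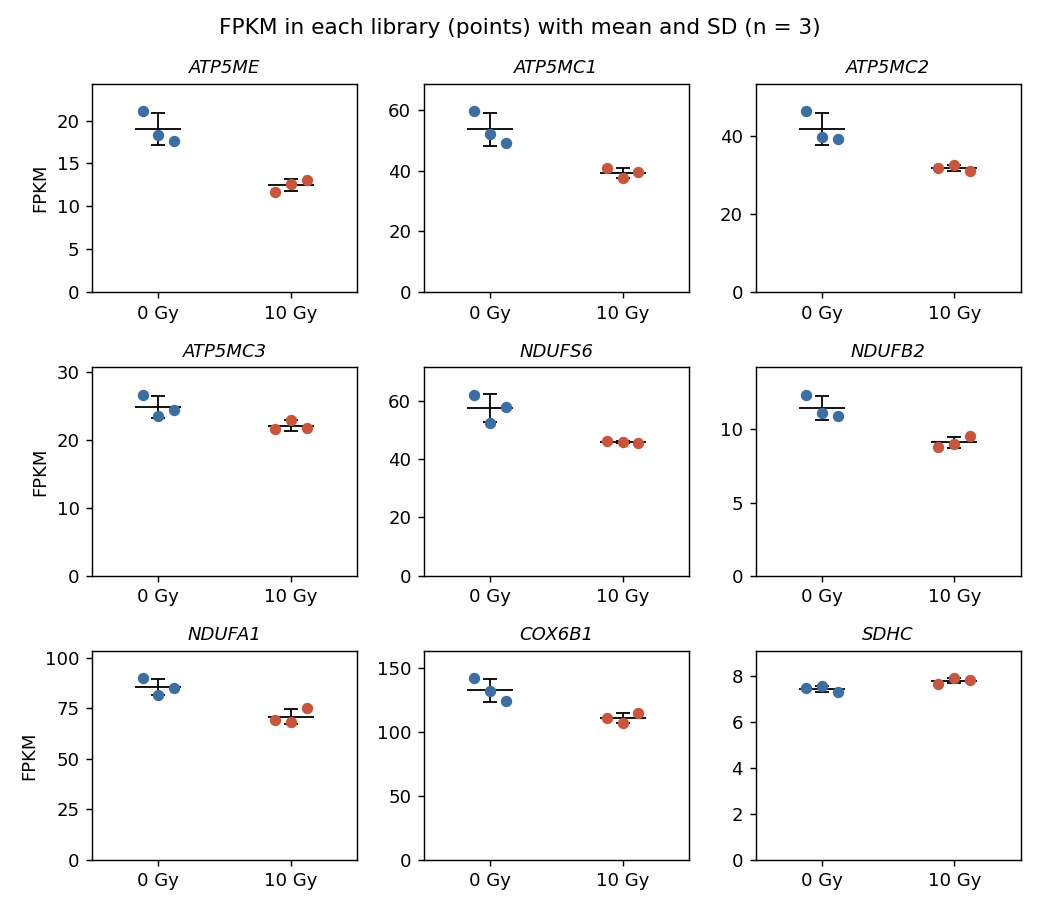
FPKM (y axis, from 0) in each of the 3 libraries at 0 Gy (blue points) and 10 Gy (red points) for the 7 genes called lower in all analyses, ATP5MC3 and SDHC, with mean and SD as bars. In the first 8 panels every red point lies below every blue one, and in the SDHC panel every red point lies above.

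The size of the fall can be set beside genes of like level. Among all genes with a mean of 20 to 100 FPKM 45.5% were called lower, with a median log2 change of -0.12, and of the 43 respiratory genes in that range 22 fell, with a median of -0.17. Between 5 and 20 FPKM 28.1% of all genes were called lower with a median of -0.053, and 9 of 22 respiratory genes fell with a median of -0.15. The order of the shares depended on the scaling. Between 20 and 100 FPKM the share of respiratory genes called lower was above that of all genes with median of ratios (37.2% and 34.2%) but below it with recovered reads (23.3% and 27.5%), the upper quartile (18.6% and 24.5%) and TPM (9.30% and 18.1%). Between 5 and 20 FPKM it was below with median of ratios (18.2% and 19.1%) and TPM (9.09% and 9.60%) and above with recovered reads (18.2% and 15.3%) and the upper quartile (13.6% and 13.1%). Of 8 respiratory genes above 100 FPKM 5 fell, where 56.0% of all such genes did. Highly expressed genes in general were thus lower in the deposited values, and the respiratory genes had lower medians in these ranges. By length, all genes of 1000 to 2000 bases had a median of -0.13 and those over 8000 bases 0.022, and respiratory genes in these ranges -0.19 and -0.082. The part of level and length in the result was not tested.

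Gene families with other roles moved in the same direction. Of 76 mitochondrial ribosomal protein genes tested 55 fell and 0 rose (median log2 change -0.20), of 77 cytosolic ribosomal protein genes 53 fell and 0 rose (-0.18), and of 36 proteasome subunit genes 21 fell and 0 rose (-0.13). Over all genes 23.7% were called lower. Under TPM the counts lower were 26 of 76, 10 of 77 and 1 of 36, beside 7 of 78 for the respiratory subunits. As shares these were 34.2%, 13%, 2.78% and 8.97%, where 8.83% of all genes were lower. The families were not tested against each other.

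Assembly factors, which build the complexes without staying in them, gave some of the largest changes of the pathway. Of the factors tested, 6 of 16 for complex I fell, 1 of 4 for complex II, 2 of 6 for complex III, 7 of 19 for complex IV and 2 of 4 for complex V, and 0 rose (0 at an unadjusted p under 0.05), where 23.7% of all genes were called lower. Under TPM the counts lower were 5 of 16, 1 of 4, 2 of 6, 2 of 19 and 1 of 4 in the same order, where 8.83% of all genes were lower, and TIMMDC1 for complex I (log2 change 0.20, adjusted p = 0.0185) and TTC19 for complex III (log2 change 0.16, adjusted p = 0.0216) were called higher. The lowest changes were those of NDUFAF4 for complex I, SDHAF3 for complex II, UQCC3 for complex III, COA6 for complex IV and TMEM70 for complex V. NDUFAF4 measured 10.7, 8.86 and 10.2 FPKM at 0 Gy and 6.39, 6.34 and 6.69 FPKM at 10 Gy (log2 change -0.54 ± 0.065 (SE), adjusted p = 0.00153). UQCC3 measured 10.4, 8.41 and 8.45 FPKM at 0 Gy and 5.69, 5.85 and 5.87 FPKM at 10 Gy (log2 change -0.56 ± 0.075 (SE), adjusted p = 0.00216). Neither overlapped between doses, and both changes were close in size to that of ATP5ME. SDHAF3 (log2 change -0.36 ± 0.061 (SE), adjusted p = 0.00454), COA6 (log2 change -0.38 ± 0.069 (SE), adjusted p = 0.00608) and TMEM70 (log2 change -0.31 ± 0.046 (SE), adjusted p = 0.00302) also fell, and all 5 were called in all 17 analyses. The medians of the lists were -0.10, -0.098, -0.054, -0.16 and -0.077 in the order of the complexes, and under TPM that of complex IV alone stayed below 0 (-0.044).

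Subunits and carriers outside the naming rule moved likewise. CYC1, cytochrome c1 of complex III, measured 146, 140 and 144 FPKM at 0 Gy and 118.1, 113 and 119 FPKM at 10 Gy and fell (log2 change -0.30 ± 0.035 (SE), adjusted p = 0.00147). NDUFAB1, the acyl carrier protein of complex I, fell (log2 change -0.16 ± 0.047 (SE), adjusted p = 0.0381), and NDUFA4L2 lay under 0.1 FPKM. Of the 12 genes for the mobile carriers, cytochrome c and the enzymes that make ubiquinone, 4 fell and 0 rose (23.7% of all genes lower), and 1 was called lower under TPM (8.83% of all genes). The lowest was CYCS, cytochrome c itself, with 65.1, 61.9 and 62.4 FPKM at 0 Gy and 51.0, 50.1 and 53.1 FPKM at 10 Gy (log2 change -0.29 ± 0.035 (SE), adjusted p = 0.00155). CYC1 and CYCS were called in all 17 analyses. Of the 13 citric acid cycle genes 8 fell (23.7% of all genes lower), led by FH, fumarase, which uses the product of complex II, with 61.8, 60.5 and 60.7 FPKM at 0 Gy and 48.0, 46.2 and 48.9 FPKM at 10 Gy (log2 change -0.35 ± 0.032 (SE), adjusted p = 0.000696). Under TPM 3 of these 13 were called lower (8.83% of all genes).

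The partner subunits encoded in mitochondrial DNA were far more abundant, from 82.1 FPKM for MT-ATP8 to 4094 FPKM for MT-CO1. In sum they made up 6.99%, 8.70% and 8.68% of all FPKM at 0 Gy and 7.12%, 7.24% and 8.69% at 10 Gy, so the doses overlapped. Here the first control library was the lowest of its dose, the reverse of its place for the nuclear subunits. Of 13 genes 1 fell, MT-CO2, a catalytic subunit of complex IV, with 3039, 3557 and 3346 FPKM at 0 Gy and 2160, 2168 and 2821 FPKM at 10 Gy (log2 change -0.48 ± 0.12 (SE), adjusted p = 0.0197). It passed under all scalings but not with each library left out (adjusted p up to 0.0767), and the adjusted p was 0.244 with no filter on low genes. The other 12 had adjusted p from 0.0667 to 0.872. The share called lower was 7.69%, beside 23.7% of all genes. The median log2 change of the 13 was still -0.17, close to the -0.16 of the nuclear list, and 11 of them lay below the median of all genes. Their SE were 0.10 to 0.18.

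Regulators of mitochondrial gene expression were also measured. Of 10 tested 8 fell and 0 rose in the deposited values, where 23.7% of all genes were called lower. Under each of the other 4 scalings 3 fell, where 8.83% to 16.9% of all genes were called lower. PPARGC1A and PPARGC1B, coactivators of the program, lay under 1.1 FPKM. The lowest change was that of GABPB1, with 5.36, 5.50 and 5.39 FPKM at 0 Gy and 3.90, 4.06 and 3.74 FPKM at 10 Gy (log2 change -0.39 ± 0.043 (SE), adjusted p = 0.00117). Its DNA-binding partner GABPA, an ETS factor, measured 5.78, 6.20 and 5.52 FPKM at 0 Gy and 4.38, 4.25 and 4.63 FPKM at 10 Gy (log2 change -0.33 ± 0.052 (SE), adjusted p = 0.00372). Both were called in all analyses that tested them, 16 for GABPB1 and 17 for GABPA. NRF1, another factor known to bind promoters of respiratory genes, overlapped between doses at 6.32, 6.75 and 6.43 FPKM at 0 Gy and 6.33, 6.68 and 6.91 FPKM at 10 Gy (log2 change 0.027 ± 0.045 (SE), adjusted p = 0.671), and YY1 did not pass (log2 change -0.10 ± 0.036 (SE), adjusted p = 0.0673).

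Promoter windows from RefSeq (GRCh38.p14), from 250 bases before to 50 bases after a start site, were matched by symbol for 69 of the 88 genes, among them 63 of the 78 tested. Motifs of the factors above were searched on both strands: GCGCANGCG for NRF1, CCGGAAG for ETS factors such as GABPA, and AAGATGGCG for YY1. None of the 3 contains another. Among the 69 genes 33.3% had a match for NRF1, 30.4% for ETS factors and 13% for YY1, against 18.1%, 24% and 5.09% of the 8650 tested genes with a window. By window, the shares were 28%, 26.8% and 12.2% of the 82 of the list and 7.52%, 10.3% and 1.75% of all 35116, genes that were not tested included. Of the 69 genes 62.3% had at least one of them, against 40.5% of those 8650 genes. TATAAA was found for 10.1% of the 69 genes (5 of the 63 tested) and 7.6% of the tested genes, but in 8.54% of the windows of the list and 11.5% of all windows. CCAAT was found for 37.7% of the 69 genes and 43.7% of the tested genes, and in 35.4% and 34.6% of the windows. GGGCGG, the GC box, was found for 63.8% and 78.6% of these genes, and in 62.2% and 45% of the windows. These shares were not tested. A match is a description of letters and not a site.

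The windows below show 30 bases around a match, 5′ to 3′ on the strand of the gene, for genes whose values were given above, with the match in capitals. The NRF1 motif is shown for ATP5ME, ATP5MC2, NDUFS6, UQCR10, SDHD and SDHA, all called lower in the deposited values. It was also found for genes that were not called, such as COX6A1, UQCR11 and NDUFS7.
ATP5ME (chr4:674335-674364, minus strand): gccgctgacgGCGCATGCGtgcgcccagct
ATP5MC2 (chr12:53676105-53676134, minus strand): gcccgggtcaCGCATGCGCtgagccttcct
NDUFS6 (chr5:1801351-1801380, plus strand): cagaagccgtGCGCATGCGttagcgctaag
UQCR10 (chr22:29767351-29767380, plus strand): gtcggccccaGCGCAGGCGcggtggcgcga
SDHD (chr11:112086753-112086782, plus strand): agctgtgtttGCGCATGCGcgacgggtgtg
SDHA (chr5:218144-218173, plus strand): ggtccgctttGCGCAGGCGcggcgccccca
The ETS motif, here on the opposite strand and so read as CTTCCGG, is shown for NDUFA1, COX6B1 and NDUFS1, also called lower. An ETS match was found as well for COX4I1, NDUFS3 and UQCRQ, which were not called.
NDUFA1 (chrX:119871774-119871803, plus strand): ttccgtcgcttCTTCCGGagccgtacgtgg
COX6B1 (chr19:35648300-35648329, plus strand): acctctctcagCTTCCGGctggtagtagtt
NDUFS1 (chr2:206159583-206159612, minus strand): ggctggggccaCTTCCGGcggaactgcggg
The YY1 motif is shown for NDUFS7 and SDHB, where it lies just after the start site.
NDUFS7 (chr19:1383914-1383943, plus strand): ggccgaggccAAGATGGCGgtgctgtcagg
SDHB (chr1:17054003-17054032, minus strand): gtcaggagccAAGATGGCGgcggtggtcgc

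The change was also summarised by match, as medians with no test. Tested respiratory genes with the NRF1 motif (22) had a median log2 change of -0.17 and those without it (41) -0.16. For the ETS motif the medians were -0.19 with it (21) and -0.16 without it (42), and for YY1 -0.16 (8) and -0.17 (55). They were -0.19 (23) and -0.15 (40) for CCAAT, -0.15 (41) and -0.20 (22) for GGGCGG and -0.082 (5) and -0.17 (58) for TATAAA. Over all tested genes with a window the medians were -0.074 with the NRF1 motif and -0.038 without it. They were -0.063 and -0.041 for ETS and -0.071 and -0.045 for YY1. For the other motifs they lay between -0.0532 and -0.0415. SDHA held 4 NRF1 matches, which began at positions -166, -117, -68 and -19 from its start, and ATP5ME held 3, at -219, -173 and -78.

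A last feature concerns how far the levels can be read. In GENCODE 29, 13 of the 88 genes share at least 50% of their coding bases with another annotated gene on the same strand, while 72 share none. The median level of those 13 was 6.01 FPKM and that of the other 75 was 28.7 FPKM. All 4 complex I genes with a mean under 2 FPKM were among the 13: NDUFV2 shares 84.7%, NDUFA7 78.3%, NDUFA9 67.9% and NDUFA13 55.2%. NDUFA7 was listed at 0.266, 0.0921 and 0.131 FPKM at 0 Gy and 0.189, 0.194 and 0.229 FPKM at 10 Gy, from 2 to 8 reads per library, and NDUFA9 at 2.02, 2.05 and 1.81 FPKM at 0 Gy and 1.83, 1.85 and 1.89 FPKM at 10 Gy. The gene that shares the bases of NDUFV2, AP005263.1, was listed at 0 in all libraries. UQCR11, which shares 100% with AC005943.1, still measured 17.0 ± 1.72 FPKM at 0 Gy and 15.3 ± 0.761 FPKM at 10 Gy (SD, n = 3), and COX8A with 55.1% was the second highest of the list. On either strand 48 of the 88 genes share exon bases with another gene, and whether strand was used in counting is not given. Of the exon bases of NDUFA1 44.5% lie opposite RNF113A, at 11.8 FPKM at 0 Gy and 8.91 FPKM at 10 Gy on average. Of those of NDUFB2 27.9% lie opposite BRAF, at 1.04 and 1.12 FPKM. GABPA shares 413 bases with ATP5PF on the other strand. The part of shared bases in these levels and changes was not tested. The deposited lengths equal the union of all annotated exons, which came to 14160 bases for SDHC. Over the 78 tested genes longer genes had lower levels (Spearman correlation -0.667, a description across genes that are not independent).

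**Figure D5:**
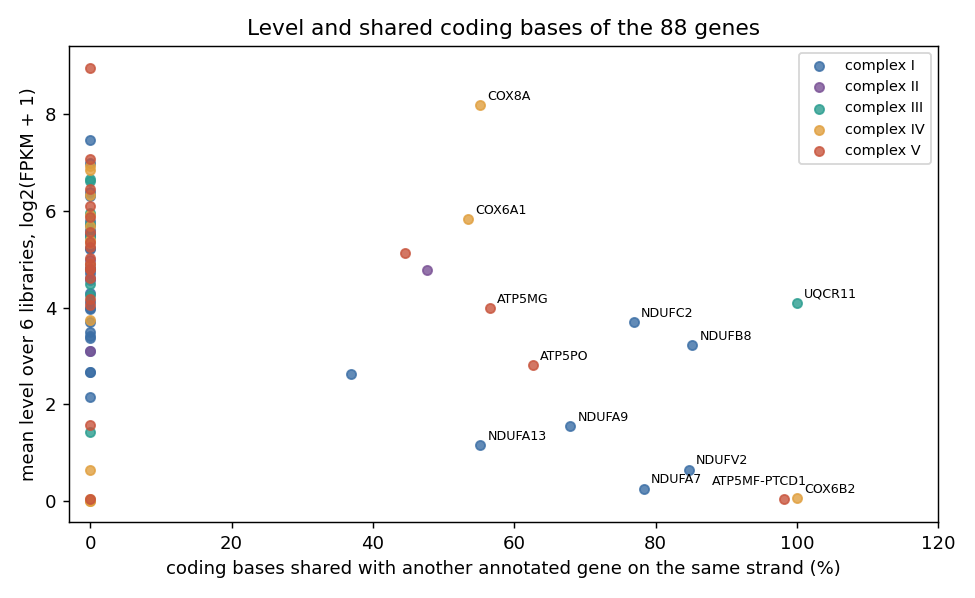
Mean level over the 6 libraries as log2(FPKM + 1) (y axis) against the percent of coding bases shared with another annotated gene on the same strand (x axis) for the 88 genes, coloured by complex. Genes at 50% or more are named; NDUFV2, NDUFA7, NDUFA9 and NDUFA13 lie low, while COX8A, COX6A1 and UQCR11 do not.

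The other members under the filter were ATP5MF-PTCD1, a readthrough gene, with 0 to 3 reads per library, and ATP5MGL, a retained copy of ATP5MG, with 0 to 3 reads. With COX4I2, COX6A2, COX6B2, COX7A1, COX7B2, COX8C, NDUFV2 and NDUFA7 they make up the 10 genes of the 88 that were not tested.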

How the data were processed

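RNA of MDA-MB-231 cells was enriched for poly(A) and sequenced. The authors' processing notes name HISAT2 and GRCh38, and the program that counted reads and made the values is not given in the sources used here. The authors deposited FPKM per gene for 6 libraries, 3 at 0 Gy and 3 at 10 Gy, with GENCODE 29 gene identifiers. Whole reads were recovered from the steps of the FPKM values (100% within 0.1 read). Compared with those reads, the depth behind the FPKM differed by a factor of 0.973 to 0.991 at 0 Gy and 1.028 to 1.039 at 10 Gy. Log2(FPKM + 1) was tested for 12128 genes, those whose mean over the 6 libraries reached 1 FPKM, with limma 3.58.1 in R 4.3.3 (empirical Bayes with intensity trend, no covariate), with Benjamini-Hochberg adjustment over all genes and a threshold of 0.05. This differs from the study's 1.3-fold threshold, which names no test. Log2 changes are on the log2(FPKM + 1) scale and understate changes of low genes. The script was tested on simulated data. Alternatives were another pseudocount (0.1), no filter or 5 FPKM, 4 scalings, a replicate block, no trend, protein-coding genes only, and each library left out. The scaling by recovered reads was chosen after seeing the data.

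Genes named with values were, by rule, the highest and lowest tested gene and the called gene with the largest change in each complex, all of SDHA to SDHD, nuclear core genes of complex I, the c subunit genes, the restricted isoforms with their partners, ATP5IF1, COX7A2L, UQCRHL, NDUFA4, genes not tested, and the called gene with the largest change of each pathway list. Other genes given with values, such as NDUFB2, NDUFA1, ATP5F1A, GABPA and MYL5, were added after their values were seen. The members and lists were chosen with earlier results of these data known. Shared exons were computed from GENCODE 29, coding sequence came from its transcripts, and promoters came from RefSeq. No peptide sequence is shown, and 1 result is not reported here.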

Additional observations from a re-analysis of the deposited data

How the results depend on the processing

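The count of 36 respiratory genes called, of 4317 among all genes, was 19 with no filter on low genes, 13 with the upper quartile, 9 with TPM, 23 with median of ratios and 16 with the recovered reads as depth, but 47 with protein-coding genes only and 42 of 73 tested with a minimum of 5 FPKM. The share of all genes called lower, 23.7% as deposited, moved as well. It was 5.7% with no filter, 29.9% with protein-coding genes only and 37.65% with a minimum of 5 FPKM. With the upper quartile and TPM the median change of the list was -0.075 and -0.040. The fit with the replicate number as a block (replicate block) called 30 of the list and 3503 of all genes; deviations of libraries with the same number had correlations of -0.040, -0.035 and -0.101, so the numbers were not taken as pairs, and the ratios of c subunit genes had exact p = 0.25, the smallest 3 pairs can give, for those to ATP5MC3. Leaving out a library gave 13 to 39 genes of the list and 2660 to 3993 of all genes, lowest without the second irradiated library (13) and without the first (17), and the median change was -0.18 to -0.12. The number of list genes below the median of all genes was 65 of 73 tested with a minimum of 5 FPKM, 79 of 86 with no filter and 67 to 74 of 78 under the others.

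Signs turned for genes that were not called. NDUFS3 was 0.019 with the upper quartile, 0.054 with TPM and 0.0032 with the recovered reads. ATP5F1B was 0.049, 0.086 and 0.032 there and 0.0054 with median of ratios, and ATP5S was 0.0014 and 0.026 with the first 2. With TPM, NDUFS7 was 0.0007, SDHB 0.015, COX4I1 0.0021, COX6A1 0.029 and COX7A2 0.017. NDUFA13 ranged from -0.018 to 0.15 with a library left out. The cause was not tested. Depth limits the low genes, such as COX7A1.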
